A study of Homo sapiens with 18 samples.

Results

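The genes described here are 55 human genes of DNA replication and origin licensing, chosen by name from the 58735 genes of the read count table. The choice was made with earlier results of these data known, so counts set against all genes are descriptions. All 55 genes had enough reads to be tested. They encode the proteins that mark replication origins, load and start the replicative helicase, copy the DNA, supply nucleotides and restore chromatin on the copied strands. The 18 libraries hold RNA of LNCaP, an established prostate cancer cell line that responds to androgens. In every group a short hairpin RNA targeted HOXB13, a homeodomain transcription factor of the prostate lineage, and the groups differed in what was put back from an inducible construct. The 3A cells received HOXB13 with T8, T41 and S31 changed to alanine, the WT cells received wild-type HOXB13, and the EV cells received an empty vector. After 48 h in RPMI with 2% charcoal-stripped serum, which is depleted of steroids, cells were given either 10 nM R1881, a synthetic androgen, or 0.1% ethanol as vehicle for 24 h. This makes 6 groups of 3 libraries: 3A with R1881, WT with R1881, EV with R1881, 3A with vehicle, WT with vehicle and EV with vehicle. The labels do not state whether replicates are separate cultures, so the spread that p-values rest on may be technical only. They also do not state whether each rescue state is 1 transduced population or 1 clone, so a difference between populations and an effect of the rescue cannot be told apart.

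In each cell cycle the origin recognition complex, with CDC6 and CDT1, loads the MCM2-7 helicase onto DNA in G1, a step called licensing, which geminin limits by binding CDT1. In S phase the kinase CDC7-DBF4 and cyclin-dependent kinases turn the loaded helicase into an active one by adding CDC45 and the GINS complex, and primase, polymerases, the sliding clamp PCNA and ligase then copy both strands. Many of these genes are transcribed under E2F factors and are known to be more highly expressed in cycling than in resting cells, and androgens are known to drive LNCaP cells into cycle.

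Levels are given as CPM, counts of a gene relative to the scaled total of its library, and differences as log2 fold changes with their standard errors from edgeR's quasi-likelihood test on the counts. A difference is called when its p-value, adjusted by Benjamini-Hochberg over the 17162 genes tested, is under 0.05. The summed level of the 55 genes was 3716, 3203 and 3332 CPM in the 3 libraries of 3A with R1881, 3060, 2854 and 2930 CPM in WT with R1881 and 2397, 2032 and 2257 CPM in EV with R1881. With vehicle the sums were 3265, 3369 and 2732 CPM in 3A, 2166, 2195 and 2126 CPM in WT and 2074, 1780 and 1973 CPM in EV. Within each treatment the 3A libraries lay above the WT libraries and the WT libraries above the EV libraries, with no overlap. Means were 3417 ± 266 CPM in 3A, 2948 ± 104 in WT and 2229 ± 184 in EV with R1881, and 3122 ± 342 in 3A, 2162 ± 34.3 in WT and 1942 ± 149 in EV with vehicle (SD, n = 3 each). In RNA from whole cultures, fewer cells in a cycle phase and less RNA of these genes per cell cannot be told apart.

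**Figure D1:**
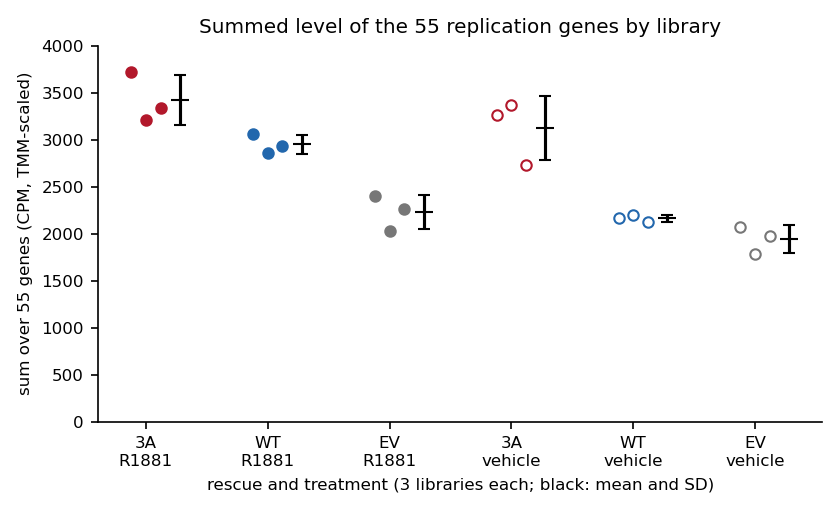
Summed level of the 55 replication genes in each library, in CPM, by treatment and rescue state; coloured points are libraries (filled with R1881, open with vehicle) and the black marks are the mean of 3 with the SD. Within each treatment the 3A libraries lie highest and the EV libraries lowest, and the WT libraries sit near EV with vehicle (means of 2162 CPM in WT and 1942 CPM in EV) and nearer to 3A with R1881 (means of 3417 CPM in 3A and 2948 CPM in WT).

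The genes moved largely together. The mean level ran 3A, WT, EV from high to low for 51 of the 55 genes with vehicle and for 50 with R1881. 3A with R1881 was the highest of the 6 groups for 44 genes and EV with vehicle the lowest for 46. The shares of all genes with this order, or with these highest and lowest groups, were not counted. Across the 18 libraries the median correlation between pairs of these genes, on log2 CPM, was 0.85 over 1485 pairs (quartiles 0.67 and 0.92), and 0.49 after the group means were taken out. These are descriptions of 18 libraries whose genes share depth and scaling. MCM4 tracked the mean of the other 54 most closely (r = 0.99), and POLD2 (r = 0.29) and POLE (r = 0.43) least. A test over all 6 groups at once was past the threshold for 49 of the 55 genes, against 43.25% of all genes tested (edgeR). By edgeR with TMM scaling and no replicate term, the fit that the values here come from, DUT, ORC2, POLA2, POLD2, POLE, RPA1 and RPA3 were called in none of the 12 comparisons and none of the 55 genes was called lower. DESeq2 called ORC2, POLA2 and POLD2 higher in 1 comparison each and GMNN lower in 1. With the replicate number in the model, edgeR called ORC2, POLA2 and POLE higher in at least 1 comparison each and GMNN lower in 1.

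**Figure D2:**
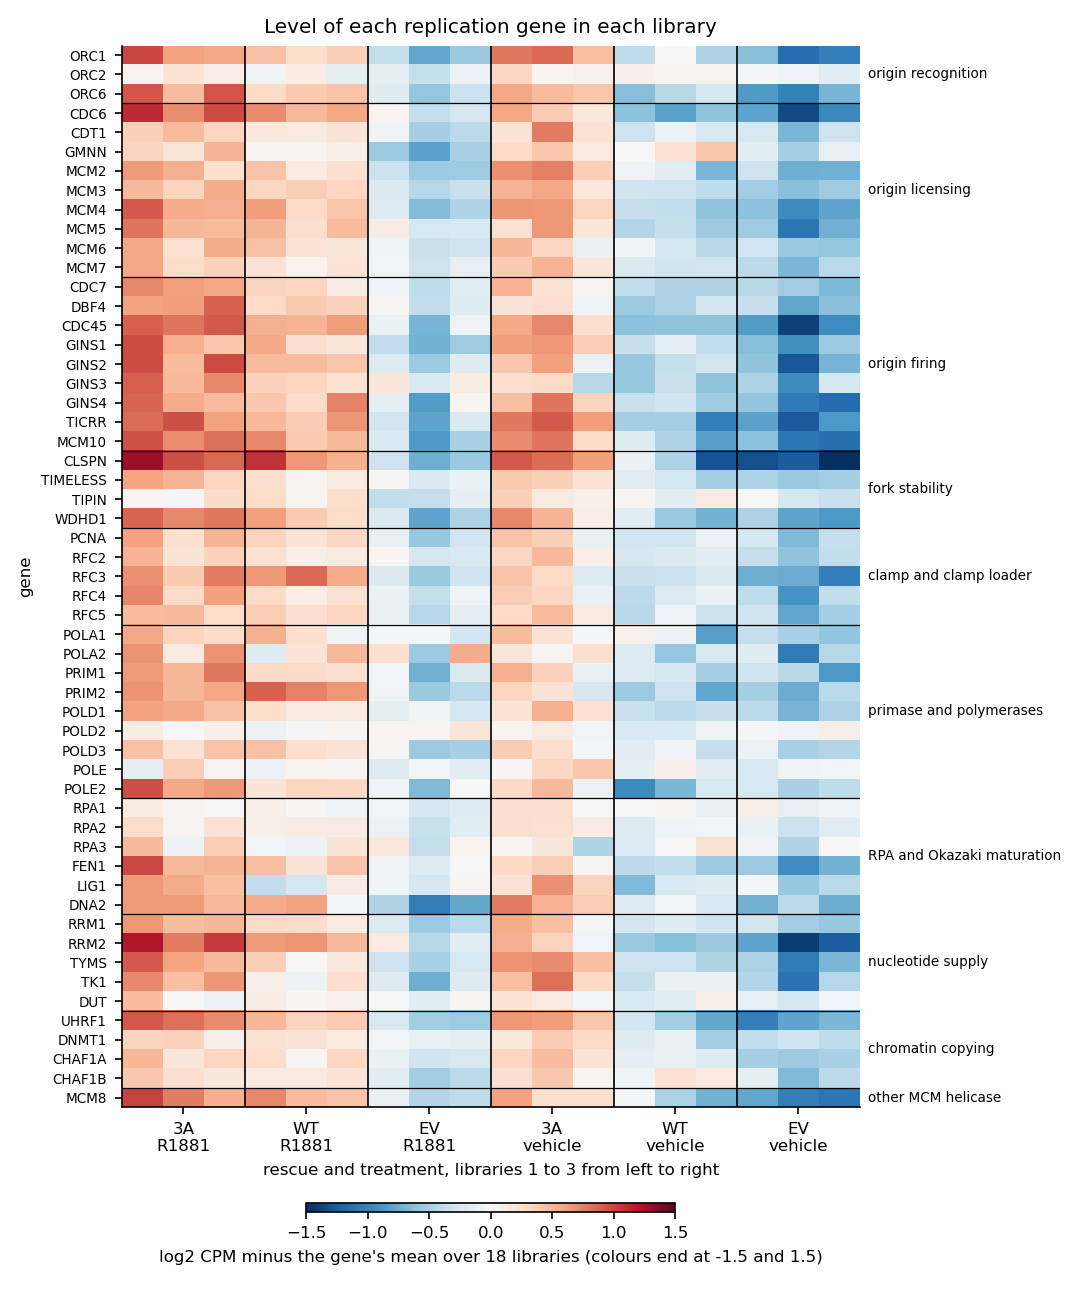
Level of each of the 55 genes (rows, ordered by role) in each of the 18 libraries (columns, by group), as log2 CPM minus the gene's mean over the 18 libraries. Most rows are high in the 3A columns and in WT with R1881 and low in both sets of EV columns, while POLD2, POLE and the RPA genes vary little.

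Levels per transcript length, as the mean FPKM over the 18 libraries, were highest for POLD2 at 100.1, PCNA at 97.9, TK1 at 38.6 and MCM7 at 34.4, and lowest for TICRR at 0.917 and POLA2 at 0.810. Together the 55 genes took 0.184% to 0.357% of the counts of a library.

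Libraries held 22812641 to 30611980 counts, with 21253 to 23377 genes detected and 2.71% to 5.70% mitochondrial counts. HOXB13 itself had 578, 506 and 436 CPM in 3A, 358, 317 and 366 in WT and 421, 405 and 424 in EV with R1881. With vehicle HOXB13 had 668, 869.6 and 739 CPM in 3A, 529, 589 and 489.5 in WT and 538, 497 and 564 in EV. HOXB13 was higher in 3A than in EV with vehicle by 0.51 ± 0.11 (edgeR adjusted p = 0.00482), differed from EV by 0.28 ± 0.11 (edgeR adjusted p = 0.119) with R1881, and was higher in 3A than in WT by 0.50 ± 0.11 (edgeR adjusted p = 0.00807) with vehicle and 0.55 ± 0.11 (edgeR adjusted p = 0.00595) with R1881. The call against WT was lost without library 2 of 3A with vehicle (0.39) with vehicle and without library 2 of WT with R1881 (0.48) with R1881. Between WT and EV the difference was 0.01 ± 0.11 (edgeR adjusted p = 0.999) with vehicle and -0.26 ± 0.11 (edgeR adjusted p = 0.143) with R1881, so the libraries labelled WT were not distinguished from those labelled EV by this gene. Gene counts cannot separate the RNA the hairpin targets from the rescue RNA, libraries of cells lacking the hairpin were not analysed here, and the groups are named by their labels. The luminal prostate genes KLK3 (487 FPKM) and KLK2 (44.6) were present, and CD3E and TP63 were at 0. KRT14, on the basal list with TP63, had 0.399, 1.01 and 0.722 CPM in 3A, 1.03, 2.20 and 3.22 in WT and 0.271, 0.225 and 0.652 in EV with R1881, differed by 2.48 ± 0.68 (edgeR adjusted p = 0.0278) in WT against EV there, a call lost without any 1 of 4 libraries, and stayed at or under 0.511 CPM with vehicle. Of the fibroblast list COL1A1 lay between 12.45 and 24.98 CPM in the 18 libraries, and VIM, high in prostate lines without androgen response, between 13.5 and 22.4 CPM. Of the 3 endothelial markers VWF alone had enough reads to be tested. It was higher than in EV with vehicle by 1.29 ± 0.18 (edgeR adjusted p = 4.31e-05) in 3A and by 1.31 ± 0.18 (edgeR adjusted p = 0.000397) in WT, and the part of these markers in the results below was not tested.

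Promoter sequence was examined from RefSeq windows on GRCh38.p14 that run from 250 bases before to 50 bases after each start. Windows were matched for 48 of the 55 genes, and not for MCM4, MCM5, GINS4, POLD3, RPA2, RPA3 and DNA2. Some genes have more than 1 window, and a gene was counted when any of its windows held the letters. An E2F element, read as TTTCCCGC, TTTCGCGC, TTTGCCGC or TTTGGCGC on either strand, stood in 25 of the 48 genes (52.1%). The share was 4.0% of all 27305 genes with a window and 6.5% of the 11012 tested genes with one. Matches of these words can overlap, as in MCM6. The CCAAT box, read as CCAAT, stood in 29 genes (60.4%), against 39.7% of all genes and 42.9% of tested genes. The cell cycle homology element of G2 genes, read as TTTGAA or TTCGAA, stood in 4 genes (8.3%), against 19.5% of all genes and 15.2% of tested genes. The core letters of an androgen response element, AGAACA, stood in 5 genes (10.4%), against 17.5% of all genes and 12.7% of tested genes. The HOXB13 word CCAATAAA, which contains CCAAT, stood in 0, against 1.2% of all genes and 1.0% of tested genes. A match describes the letters of the window and does not show a bound site. The windows of 5 genes are shown, 5′ to 3′ on the strand of the gene, with the E2F letters in capitals. CDC6 (chr17:40287629-40287928, plus strand), MCM6 (chr2:135876394-135876693, minus strand) and CLSPN (chr1:35769929-35770228, minus strand) stand for licensing and fork genes that rose in 3A. LIG1 (chr19:48170295-48170594, minus strand) is the gene that edgeR without a replicate term called in 3A against WT with R1881, where other tests called more. POLD2 (chr7:44123499-44123798, minus strand) is a gene that edgeR without a replicate term called in no comparison, and its window holds no E2F word.
CDC6: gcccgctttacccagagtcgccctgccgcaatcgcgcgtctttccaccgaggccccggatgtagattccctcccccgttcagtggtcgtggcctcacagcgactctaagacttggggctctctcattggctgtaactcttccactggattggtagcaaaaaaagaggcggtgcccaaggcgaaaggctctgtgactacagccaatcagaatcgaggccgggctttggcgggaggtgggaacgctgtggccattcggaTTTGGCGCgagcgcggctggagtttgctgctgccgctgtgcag
MCM6: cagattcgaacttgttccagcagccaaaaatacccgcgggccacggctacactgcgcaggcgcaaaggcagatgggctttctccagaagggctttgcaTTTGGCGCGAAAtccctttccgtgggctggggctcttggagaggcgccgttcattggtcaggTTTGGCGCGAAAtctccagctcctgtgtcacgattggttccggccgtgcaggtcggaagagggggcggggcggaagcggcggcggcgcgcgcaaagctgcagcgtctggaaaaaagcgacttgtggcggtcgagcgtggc
CLSPN: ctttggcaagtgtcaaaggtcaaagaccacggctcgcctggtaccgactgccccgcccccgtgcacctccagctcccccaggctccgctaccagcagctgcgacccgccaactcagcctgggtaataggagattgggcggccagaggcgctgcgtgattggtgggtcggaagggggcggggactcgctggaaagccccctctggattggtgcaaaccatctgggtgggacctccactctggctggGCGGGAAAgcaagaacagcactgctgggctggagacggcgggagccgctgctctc
LIG1: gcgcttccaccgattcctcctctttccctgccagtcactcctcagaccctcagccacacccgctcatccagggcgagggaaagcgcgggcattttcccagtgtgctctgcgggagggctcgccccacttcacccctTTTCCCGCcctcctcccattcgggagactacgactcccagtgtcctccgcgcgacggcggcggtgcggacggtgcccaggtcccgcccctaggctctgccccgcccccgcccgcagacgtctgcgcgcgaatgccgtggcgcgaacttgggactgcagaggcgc
POLD2: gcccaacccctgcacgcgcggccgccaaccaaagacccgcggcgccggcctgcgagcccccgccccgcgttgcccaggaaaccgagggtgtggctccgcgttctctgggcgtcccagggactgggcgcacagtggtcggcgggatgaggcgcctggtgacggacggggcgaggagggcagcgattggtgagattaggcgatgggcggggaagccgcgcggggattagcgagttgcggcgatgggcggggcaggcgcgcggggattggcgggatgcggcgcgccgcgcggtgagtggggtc
Counted from the start as position 1 and from the base before it as -1, the first base of the element lies at 8 in CDC6, -5 in CLSPN and -114 in LIG1, and MCM6 has 4 matches at -152, -148, -90 and -86. In 3A against EV with vehicle, 19 of the 25 genes with E2F letters were called higher with a median log2 fold change of 0.81. Of the 23 without them, 20 were called higher with a median of 0.83. Of all genes tested, 3.97% were called higher there.

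3A cells, with the mutant rescue, were compared with EV cells, with the empty vector. HOXB13 RNA was called higher in 3A with vehicle and not with R1881. As said above, an effect of the rescue and a difference between populations cannot be told apart. With vehicle, 45 of the 55 genes were higher in 3A, against 3.97% of all genes tested called higher, and their median log2 fold change was 0.83. With R1881, 46 of 55 were higher in 3A, against 4.39% of all genes, with a median of 0.79. The same 44 genes were called in both treatments. Over all genes the median lay between -0.03 and 0.01 in each of the 12 comparisons. The largest change was in CLSPN, which encodes claspin, a fork protein that also passes checkpoint signals, at 2.22 ± 0.24 with vehicle, or 4.65-fold (95% interval 3.31 to 6.53). Of the 45 calls with vehicle 38 were kept without any 1 library, and of the 46 with R1881 39 were kept. With the replicate number in the model, 49 of the 55 were called higher with R1881, against 1252 of all genes called higher. The added genes were ORC2, TIPIN and POLA1. The 16 genes of G2 and mitosis moved with these genes. Their summed level was 1214 ± 119.8 CPM in 3A, 822 ± 77.6 in WT and 529.6 ± 102 in EV with R1881, and 1123 ± 133 in 3A, 615 ± 44.7 in WT and 466 ± 99.3 in EV with vehicle (SD, n = 3 each), and their part in the results was not tested.

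Between 3A and WT the rescue differs in the changed residues and also in the level of HOXB13 RNA, which was higher in 3A by 0.50 with vehicle and 0.55 with R1881, and these cannot be told apart. With vehicle, 37 of 55 genes were higher in 3A than in WT, against 2.64% of all genes, with a median of 0.63, and 24 of the 37 were kept without any 1 library. With R1881 the median was 0.25 and 1 gene of the 55, LIG1, was called higher, against 1.41% of all genes, a count near that share. That count was 0 without library 1 of WT with R1881, library 2 of WT with R1881 or library 1 of 3A with R1881. Other tests called more of the 55 higher with R1881, 7 with DESeq2 and 9 with the replicate number in the model, while over all genes the calls of higher expression were 438 with DESeq2 and 511 with the replicate number, against 242 without it. Beside LIG1, both called CDC7, TIMELESS, POLD1, TYMS, TK1 and UHRF1. The model with the replicate number also called CDC6 and RRM2.

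WT cells, labelled as rescued with wild-type HOXB13, were compared with EV cells. HOXB13 RNA was not called different between them in either treatment. An effect of the rescue and a difference between populations cannot be told apart. With R1881, 35 of 55 genes were higher in WT, against 4.66% of all genes, with a median of 0.52. Without library 2 of EV with R1881 the count was 19, and those 19 were kept without any 1 library. With vehicle the median was 0.24 and 0 of 55 were called by edgeR, against 0.647% of all genes called higher. At an unadjusted p under 0.05, 24 were higher, against 848 of the 17162 genes tested, and 1 was lower. DESeq2 called 4 higher, against 194 of all genes, and 52 of the 55 estimates were above 0. The share of all genes with an estimate above 0 was not counted. The 3A and WT groups of a treatment are set against the same EV libraries, so these comparisons share their controls.

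**Figure D3:**
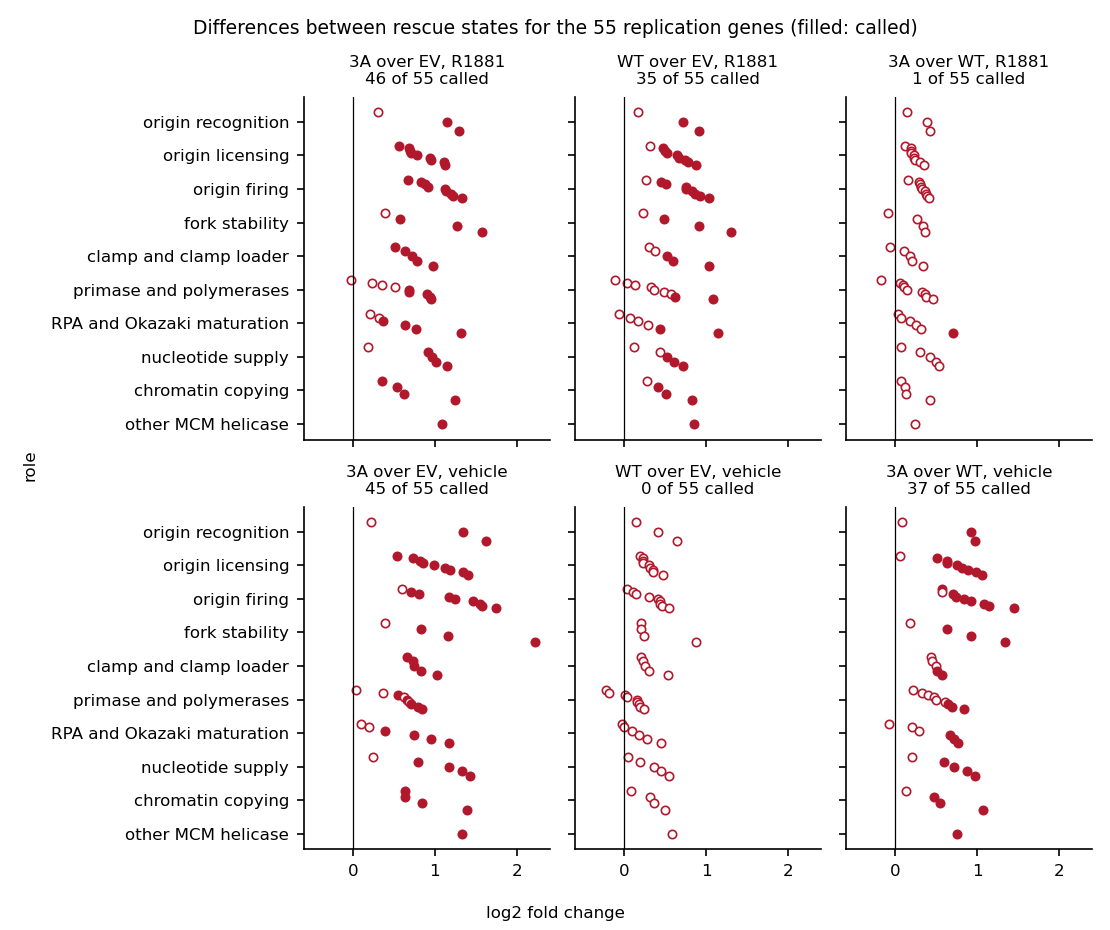
Log2 fold change of each of the 55 genes in 3A against EV, WT against EV and 3A against WT, with R1881 and with vehicle. Filled points are called by edgeR without a replicate term at an adjusted p under 0.05. All genes but POLD2 with R1881 sit above 0 in 3A against EV in both treatments (medians of 0.79 and 0.83), and nearer to 0 in 3A against WT with R1881 (median 0.25) and WT against EV with vehicle (median 0.24).

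ORC1, the largest subunit of the origin recognition complex, which is degraded and remade in each cycle, and ORC6, its smallest, were higher in 3A than in EV in both treatments and higher in WT than in EV with R1881. With R1881, ORC1 had 24.98, 18.995 and 18.7 CPM in 3A, 17.04, 14.98 and 16.03 in WT and 9.75, 7.32 and 8.48 in EV. With vehicle, ORC1 had 21.6, 22.6 and 17.1 CPM in 3A, 9.65, 12.5 and 9.07 in WT and 8.13, 5.69 and 6.16 in EV. The 3 rescue states did not overlap in either treatment. The ORC1 difference was 1.62 ± 0.17 (edgeR adjusted p = 2.21e-06) for 3A against EV and 0.97 ± 0.17 (edgeR adjusted p = 0.000898) for 3A against WT with vehicle. With R1881 it was 1.29 ± 0.17 (edgeR adjusted p = 3.60e-05) for 3A against EV and 0.91 ± 0.17 (edgeR adjusted p = 0.00196) for WT against EV. With R1881, ORC6 had 24.4, 17.8 and 24.5 CPM in 3A, 15.7, 16.8 and 17.2 in WT and 11.3, 8.58 and 10.2 in EV. With vehicle, ORC6 had 19.1, 17.8 and 17.1 CPM in 3A, 8.23, 9.58 and 10.6 in WT and 7.08, 6.34 and 7.88 in EV. Again the 3 states stood apart in each treatment. ORC6 differed by 1.34 ± 0.15 (edgeR adjusted p = 3.22e-06) in 3A against EV with vehicle and by 0.72 ± 0.15 (edgeR adjusted p = 0.00378) in WT against EV with R1881. With R1881, ORC2 had 33.3, 37.1 and 34.5 CPM in 3A, 30.8, 34.99 and 29.2 in WT and 29.1, 25.2 and 30.3 in EV. With vehicle, ORC2 had 40.1, 32.9 and 33.6 CPM in 3A, 34.1, 33.3 and 33.5 in WT and 31.7, 30.8 and 29.03 in EV. 3A lay above EV in both treatments and overlapped WT. ORC2 is a core subunit, and its 3A against EV estimate with vehicle was 0.22 ± 0.10 (edgeR adjusted p = 0.220), with a 95% interval of 0.01 to 0.44. In 3A against EV with R1881, ORC2 was called with the replicate number in the model, at 0.31 (edgeR adjusted p = 0.0419), and by DESeq2, at 0.32 (adjusted p = 0.0352), but not by edgeR without that term.

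Licensing genes rose as a block. All 9 were called higher in 3A than in EV in both treatments, 8 in 3A than in WT with vehicle and 8 in WT than in EV with R1881. Of all genes, 3.97% were called higher in 3A than in EV with vehicle and 4.39% with R1881. The shares were 2.64% in 3A against WT with vehicle and 4.66% in WT against EV with R1881. CDC6 (ENSG00000094804, chromosome 17, 40287633 to 40304657, plus strand on hg38), the helicase loader, had 80.8, 60.5 and 73.7 CPM in 3A, 60.97, 52.3 and 55.6 in WT and 38.2, 29.2 and 31.3 in EV with R1881. With vehicle, CDC6 had 55.9, 48.7 and 41.6 CPM in 3A, 24.4, 21.3 and 24.6 in WT and 21.6, 14.7 and 19.04 in EV. The 3A libraries stood above all EV libraries in both treatments and above all WT libraries with vehicle, and 3A and WT touched with R1881, where the lowest 3A value lay just below the highest WT value. CDC6 differed by 1.41 ± 0.15 (edgeR adjusted p = 2.17e-06) in 3A against EV, and by 1.06 ± 0.15 (edgeR adjusted p = 0.000122) in 3A against WT, both with vehicle. With R1881 the difference was 0.78 ± 0.14 (edgeR adjusted p = 0.00190) in WT against EV and 0.35 ± 0.14 (edgeR adjusted p = 0.212) in 3A against WT. MCM4, a subunit of the helicase ring, had 192, 149 and 148 CPM in 3A, 156, 125 and 135 in WT and 88.7, 64.6 and 73.4 in EV with R1881. With vehicle, MCM4 had 160.5, 159 and 126 CPM in 3A, 79.5, 78.7 and 66.98 in WT and 65.9, 52.2 and 58.4 in EV. EV stood below both other states in both treatments, and 3A and WT overlapped with R1881 alone. MCM4 differed by 1.34 ± 0.14 (edgeR adjusted p = 1.86e-06) in 3A against EV with vehicle and by 0.88 ± 0.14 (edgeR adjusted p = 0.000443) in WT against EV with R1881. MCM3, another subunit of the ring, had 83.7, 74.9 and 87.4 CPM in 3A, 74.6, 76.7 and 74.8 in WT and 51.1, 44.4 and 47.1 in EV with R1881. With vehicle, MCM3 had 84.9, 89.3 and 66.6 CPM in 3A, 48.4, 48.2 and 45.9 in WT and 41.4, 38.6 and 41.3 in EV. In WT the MCM3 level with R1881 lay near that of 3A, and with vehicle near that of EV. The difference was 0.76 ± 0.10 (edgeR adjusted p = 9.45e-05) in 3A against WT with vehicle and 0.12 ± 0.10 (edgeR adjusted p = 0.616) with R1881, with a 95% interval of -0.09 to 0.33 for the second. Across all 6 MCM2-7 genes the 3A against EV changes ran from 0.73 in MCM6 to 1.34 in MCM4 with vehicle, and from 0.56 in MCM7 to 1.11 in MCM4 with R1881. CDT1, the loading partner of CDC6, was higher in 3A than in EV by 0.82 with vehicle and 0.70 with R1881. MCM2 shares 23.6% of its exon bases with a neighbouring gene, so its counts are uncertain.

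GMNN, which encodes geminin, the inhibitor of CDT1, was singled out after its values were seen, for the small gap between 3A and WT with vehicle. With R1881, GMNN had 52.04, 46.9 and 58.7 CPM in 3A, 42.03, 42.1 and 43.9 in WT and 28.3, 23.8 and 29.6 in EV. With vehicle, GMNN had 50.9, 54.8 and 45.5 CPM in 3A, 41.2, 48.5 and 55.3 in WT and 36.8, 29.1 and 38.1 in EV. 3A and WT overlapped with vehicle and both lay above EV, and with R1881 the 3 states were apart. 3A was higher than EV by 0.54 ± 0.13 (edgeR adjusted p = 0.00903) with vehicle and 0.95 ± 0.13 (edgeR adjusted p = 4.86e-05) with R1881, and the call with vehicle was lost without library 2 of EV with vehicle (0.43) or library 2 of 3A with vehicle (0.48). It is the licensing gene not called in 3A against WT with vehicle, at 0.06 ± 0.12 (edgeR adjusted p = 0.842). In EV its R1881 difference was -0.35 ± 0.13 (edgeR adjusted p = 0.0509), and with the replicate number in the model it was called lower at -0.35 (edgeR adjusted p = 0.0268). The other licensing genes had R1881 estimates in EV from 0.09 to 0.84.

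Among the genes that fire origins, 8 of 9 were called in 3A against EV with vehicle and all 9 with R1881, and 8 in WT against EV with R1881. In the same order, 3.97%, 4.39% and 4.66% of all genes were called higher. CDC45, the helicase cofactor, had 23.5, 22.1 and 23.97 CPM in 3A, 18.3, 18.04 and 19.5 in WT and 11.8, 7.77 and 12.1 in EV with R1881. With vehicle, CDC45 had 18.8, 20.8 and 15.04 CPM in 3A, 8.28, 8.28 and 8.29 in WT and 7.08, 4.77 and 6.62 in EV. The 3 states did not overlap in either treatment, and the WT libraries with vehicle were nearly identical. CDC45 differed by 1.57 ± 0.17 (edgeR adjusted p = 2.26e-06) in 3A against EV and 1.14 ± 0.16 (edgeR adjusted p = 0.000178) in 3A against WT with vehicle. With R1881 it differed by 1.14 ± 0.16 (edgeR adjusted p = 8.79e-05) in 3A against EV and 0.82 ± 0.16 (edgeR adjusted p = 0.00313) in WT against EV. TICRR, also called treslin, which brings CDC45 to the helicase, had 12.2, 13.4 and 10.4 CPM in 3A, 9.60, 8.88 and 10.8 in WT and 5.64, 3.95 and 5.87 in EV with R1881. With vehicle, TICRR had 11.9, 12.9 and 10.5 CPM in 3A, 4.82, 4.81 and 3.34 in WT and 3.92, 2.86 and 3.77 in EV. With vehicle each 3A library lay above every WT library, and WT and EV overlapped. TICRR differed by 1.75 ± 0.19 (edgeR adjusted p = 2.87e-06) in 3A against EV, 3.36-fold (95% interval 2.56 to 4.41), and by 1.45 ± 0.19 (edgeR adjusted p = 7.66e-05) in 3A against WT. MCM10, an activator of the assembled helicase, had 31.1, 26.04 and 28.6 CPM in 3A, 26.6, 21.03 and 22.6 in WT and 13.7, 8.89 and 11.5 in EV with R1881. With vehicle, MCM10 had 26.3, 28.03 and 19.6 CPM in 3A, 14.1, 11.6 and 9.11 in WT and 10.5, 7.56 and 7.32 in EV. EV lay below 3A in both treatments and below WT with R1881. MCM10 differed by 1.55 ± 0.19 (edgeR adjusted p = 8.20e-06) in 3A against EV with vehicle, and by 1.04 ± 0.18 (edgeR adjusted p = 0.00137) in WT against EV with R1881. The GINS subunits were higher in 3A than in EV with R1881 by 0.68 (GINS3) to 1.20 (GINS1), and GINS3 was the firing gene not called with vehicle, at 0.60 ± 0.20 (edgeR adjusted p = 0.0727). DESeq2 did call GINS3 higher there, at 0.61 (adjusted p = 0.0335). So did edgeR with no filter on low counts (edgeR adjusted p = 0.0475) and with the replicate number in the model (edgeR adjusted p = 0.0473). Without 1 of 5 libraries the GINS3 call with R1881 was lost. The kinase CDC7 and its activator DBF4 were higher in 3A than in EV by 0.81 and 0.71 with vehicle and by 0.83 and 0.88 with R1881. GINS4 and GINS3 share 23.6% and 10.9% of their exon bases with other genes and are uncertain.

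Of the 4 fork genes 3 were higher in 3A than in EV in both treatments, against 3.97% of all genes with vehicle and 4.39% with R1881. CLSPN had 20.7, 16.6 and 15.5 CPM in 3A, 18.1, 13.3 and 12.4 in WT and 6.86, 5.12 and 5.78 in EV with R1881. With vehicle, CLSPN had 16.2, 15.2 and 13.1 CPM in 3A, 7.94, 6.15 and 3.46 in WT and 3.41, 3.58 and 2.57 in EV. The WT libraries with vehicle lay below every 3A library, and the lowest of them was within the EV range. CLSPN differed by 2.22 ± 0.24 (edgeR adjusted p = 2.30e-06) in 3A against EV and by 1.34 ± 0.22 (edgeR adjusted p = 0.000764) in 3A against WT with vehicle. With R1881 it differed by 1.57 ± 0.23 (edgeR adjusted p = 9.66e-05) in 3A against EV, 1.30 ± 0.23 (edgeR adjusted p = 0.00119) in WT against EV and 0.27 ± 0.21 (edgeR adjusted p = 0.598) in 3A against WT. WDHD1, also called AND-1, which ties polymerase alpha to the helicase, had 45.2, 40.4 and 42.7 CPM in 3A, 37.7, 32.4 and 29.9 in WT and 21.2, 14.2 and 17.9 in EV with R1881. With vehicle, WDHD1 had 40.4, 35.03 and 26.3 CPM in 3A, 22.1, 16.7 and 15.04 in WT and 17.9, 14.2 and 13.5 in EV. With R1881 the 3 states were apart, and with vehicle WT and EV overlapped. WDHD1 differed by 1.27 ± 0.17 (edgeR adjusted p = 4.94e-05) in 3A against EV with R1881. TIMELESS, the partner of TIPIN in the fork protection complex, had 133, 126 and 111 CPM in 3A, 104, 90.7 and 96.8 in WT and 89.3, 76.3 and 82.5 in EV with R1881. With vehicle, TIMELESS had 116, 113 and 102 CPM in 3A, 79.1, 73.6 and 61.5 in WT and 63.9, 59.97 and 61.9 in EV. Each 3A library was above each WT and EV library of its treatment. TIMELESS differed by 0.83 ± 0.10 (edgeR adjusted p = 1.05e-05) in 3A against EV with vehicle, and by 0.23 ± 0.10 (edgeR adjusted p = 0.160) in WT against EV with R1881, which was not called. TIPIN was called in WT against EV with R1881, at 0.48 ± 0.13 (edgeR adjusted p = 0.0295), and that call was lost without any 1 of 4 libraries. In 3A against EV, TIPIN was not called by edgeR without a replicate term, while DESeq2 called it with R1881 (0.39, adjusted p = 0.0438) and with vehicle (0.39, adjusted p = 0.0441). TIPIN shares 21.02% of its exon bases with other genes.

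The sliding clamp and its loader were higher in 3A than in EV for all 5 genes in both treatments. Of all genes, 3.97% were called higher there with vehicle and 4.39% with R1881. PCNA, the clamp that holds polymerases on DNA, had 214, 166 and 199.7 CPM in 3A, 177, 161 and 175 in WT and 129, 94.6 and 115 in EV with R1881 and was singled out after its values were seen. With vehicle, PCNA had 189.6, 180.4 and 131 CPM in 3A, 117, 116 and 133 in WT and 117, 89.2 and 110.4 in EV. 3A and EV did not overlap in either treatment. PCNA differed by 0.66 ± 0.14 (edgeR adjusted p = 0.00378) in 3A against EV with vehicle and by 0.78 ± 0.14 (edgeR adjusted p = 0.000961) with R1881. In WT against EV with R1881 it differed by 0.60 ± 0.14 (edgeR adjusted p = 0.00990), which was lost without library 2 of EV with R1881 (0.48). RFC3, a small loader subunit, had 32.6, 26.6 and 34.4 CPM in 3A, 31.7, 36.4 and 29.7 in WT and 17.4, 13.7 and 16.4 in EV with R1881. With vehicle, RFC3 had 27.2, 24.6 and 17.9 CPM in 3A, 16.1, 16.2 and 17.4 in WT and 12.2, 12.1 and 9.96 in EV. With R1881 the 3A and WT libraries overlapped above EV, and with vehicle the 3 states were apart. RFC3 differed by 1.04 ± 0.15 (edgeR adjusted p = 0.000187) in WT against EV with R1881, and by -0.06 ± 0.14 (edgeR adjusted p = 0.892) in 3A against WT, with a 95% interval of -0.36 to 0.23. RFC5, another loader subunit, had 35.3, 35.6 and 30.8 CPM in 3A, 32.8, 29.96 and 31.8 in WT and 23.6, 18.9 and 23.2 in EV with R1881. With vehicle, RFC5 had 31.2, 35.3 and 28.1 CPM in 3A, 19.005, 24.5 and 20.4 in WT and 20.7, 14.8 and 17.9 in EV. 3A lay above both other states with vehicle, and with R1881 it overlapped WT, above EV. RFC5 differed by 0.83 ± 0.13 (edgeR adjusted p = 0.000220) in 3A against EV with vehicle. Its calls in 3A against WT with vehicle (0.57) and in WT against EV with R1881 (0.53) were lost without library 2 of 3A with vehicle (0.48) and without library 2 of EV with R1881 (0.42) or library 1 of WT with R1881 (0.50). RFC5 shares 10.7% of its exon bases with other genes and is uncertain. RFC2, which completes the trio of loader subunits shown, had 45.8, 36.4 and 40.5 CPM in 3A, 37.4, 34.01 and 34.9 in WT and 32.5, 26.7 and 27.1 in EV with R1881. With vehicle, RFC2 had 39.5, 44.5 and 34.05 CPM in 3A, 26.6, 27.4 and 28.6 in WT and 25.1, 20.9 and 24.7 in EV. The 3 states were apart with vehicle, and with R1881 3A and WT overlapped above EV. RFC2 differed by 0.74 ± 0.12 (edgeR adjusted p = 0.000212) in 3A against EV with vehicle. The RFC2 call in 3A against EV with R1881 (0.51) was lost without library 2 of EV with R1881 (0.45) or library 3 of EV with R1881 (0.46), and that in 3A against WT with vehicle (0.51) without library 2 of 3A with vehicle (0.42).

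Primase and the replicative polymerases were less uniform, with 5 of 9 called in 3A against EV in each treatment, 3 in 3A against WT with vehicle and 2 in WT against EV with R1881. The shares of all genes called higher were 3.97% (vehicle) and 4.39% (R1881) in 3A against EV. They were 2.64% in 3A against WT with vehicle and 4.66% in WT against EV with R1881. POLD1, the catalytic subunit of polymerase delta, had 48.3, 47.2 and 43.4 CPM in 3A, 38.2, 35.1 and 34.7 in WT and 28.96, 30.7 and 26.6 in EV with R1881. With vehicle, POLD1 had 36.7, 46.3 and 37.2 CPM in 3A, 25.3, 24.3 and 25.1 in WT and 24.1, 19.6 and 23.2 in EV. The 3 states did not overlap in either treatment. POLD1 differed by 0.85 ± 0.11 (edgeR adjusted p = 1.67e-05) in 3A against EV and 0.69 ± 0.11 (edgeR adjusted p = 0.000403) in 3A against WT with vehicle, and by 0.69 ± 0.11 (edgeR adjusted p = 0.000238) in 3A against EV with R1881. PRIM2, the large primase subunit, had 23.7, 21.1 and 22.2 CPM in 3A, 27.5, 24.8 and 23.4 in WT and 14.3, 10.2 and 11.3 in EV with R1881. With vehicle, PRIM2 had 18.6, 17.1 and 12.5 CPM in 3A, 10.2, 12.01 and 8.68 in WT and 10.5, 8.86 and 11.3 in EV. With vehicle WT and EV overlapped below 3A, and with R1881 3A and WT overlapped above EV. PRIM2 differed by 1.08 ± 0.16 (edgeR adjusted p = 0.000283) in WT against EV with R1881 and by 0.01 ± 0.16 (edgeR adjusted p = 0.999) with vehicle. The 3A against EV call with vehicle (0.66) was lost without library 2 of EV with vehicle (0.56), library 1 of 3A with vehicle (0.53) or library 2 of 3A with vehicle (0.61), and the 3A against WT call with vehicle (0.64) without library 3 of WT with vehicle (0.53), library 1 of 3A with vehicle (0.52) or library 2 of 3A with vehicle (0.60). PRIM1, the catalytic primase subunit, had 13.6, 12.4 and 15.2 CPM in 3A, 10.7, 10.7 and 10.4 in WT and 8.53, 5.30 and 7.55 in EV with R1881. With vehicle, PRIM1 had 12.7, 11.1 and 8.20 CPM in 3A, 7.61, 7.28 and 6.21 in WT and 7.12, 6.58 and 4.82 in EV. The 3 states were apart with R1881, and WT and EV overlapped with vehicle. PRIM1 differed by 0.94 ± 0.19 (edgeR adjusted p = 0.00254) in 3A against EV with R1881. With vehicle it differed by 0.79 ± 0.19 (edgeR adjusted p = 0.0102), which was lost without library 3 of EV with vehicle (0.64) or library 1 of 3A with vehicle (0.65). PRIM1 shares 21.6% of its exon bases with other genes and is uncertain.

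POLD2, the second polymerase delta subunit, was the most abundant of the 55 genes per length. It was singled out after its values were seen. With R1881, POLD2 had 401, 371 and 394 CPM in 3A, 351, 365 and 379 in WT and 381, 381 and 420.3 in EV. With vehicle, POLD2 had 384, 408 and 362 CPM in 3A, 318, 317 and 358 in WT and 366, 359 and 397 in EV. The 3A and EV libraries overlapped in both treatments, and with vehicle every WT library lay below every 3A and EV library. DESeq2 called POLD2 higher in 3A than in WT with vehicle, at 0.23 (adjusted p = 0.0481), and edgeR did not. The POLD2 difference in 3A against EV was 0.04 ± 0.08 (edgeR adjusted p = 0.828) with vehicle, with a 95% interval of -0.13 to 0.21. POLE, the catalytic subunit of polymerase epsilon, differed by 0.36 ± 0.12 (edgeR adjusted p = 0.0812) with vehicle and 0.24 ± 0.12 (edgeR adjusted p = 0.256) with R1881 and was not called. With the replicate number in the model POLE was called higher in 3A with vehicle, by 0.36 against EV (edgeR adjusted p = 0.0151) and 0.33 against WT (edgeR adjusted p = 0.0306). POLE2, its second subunit, was called higher in 3A than in EV with R1881 (0.95) and in 3A than in WT with vehicle (0.84). The first call was lost without library 2 of EV with R1881 (0.75) and the second without any 1 of 4 libraries. POLD3, an accessory subunit of polymerase delta, was called higher in 3A than in EV with R1881 (0.68) and with vehicle (0.55), and POLA1, the catalytic subunit of polymerase alpha, with vehicle (0.71). The calls of POLA1 and POLD3 with vehicle were each lost without any 1 of 4 libraries, and that of POLD3 with R1881 without library 2 of EV with R1881 (0.56) or library 3 of EV with R1881 (0.59). POLA2 shares 35.1% of its exon bases with other genes and is uncertain. It was not called by edgeR without a replicate term, and DESeq2 called it with R1881 against vehicle in EV, at 0.68 (adjusted p = 0.0423). With the replicate number in the model POLA2 was called there too, and in 3A against EV with vehicle at 0.70 (edgeR adjusted p = 0.0346).

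Of the 6 genes for single-strand binding and Okazaki fragments, FEN1, DNA2, LIG1 and RPA2 were higher in 3A than in EV in both treatments, and RPA1 and RPA3 were not called. The share of all genes called higher was 3.97% with vehicle and 4.39% with R1881. FEN1, the flap nuclease, had 113, 79.9 and 81.2 CPM in 3A, 77.9, 65.1 and 76.8 in WT and 54.9, 50 and 56.6 in EV with R1881. With vehicle, FEN1 had 70.1, 73.4 and 57.5 CPM in 3A, 43.3, 44.01 and 39.1 in WT and 39.2, 29.95 and 34.9 in EV. Every 3A library was above every WT library of its treatment and every WT library with R1881 above every EV library with R1881. FEN1 differed by 0.95 ± 0.13 (edgeR adjusted p = 5.60e-05) in 3A against EV with vehicle. In WT against EV with R1881 the difference of 0.44 ± 0.13 was called and lost without any 1 of the 6 single libraries (values 0.38 to 0.51). DNA2, a nuclease and helicase that trims long flaps, had 13.8, 13.8 and 12.4 CPM in 3A, 13.1, 13.5 and 8.72 in WT and 6.45, 4.31 and 5.22 in EV with R1881. With vehicle, DNA2 had 15.2, 12.7 and 11.4 CPM in 3A, 7.74, 8.58 and 7.58 in WT and 5.39, 6.75 and 5.28 in EV. With R1881 3A and WT overlapped above EV, and with vehicle the 3 states were apart. DNA2 differed by 1.32 ± 0.18 (edgeR adjusted p = 6.28e-05) in 3A against EV and 1.14 ± 0.18 (edgeR adjusted p = 0.000555) in WT against EV with R1881. Its 3A against WT call with vehicle (0.72) was lost without library 3 of WT with vehicle (0.68) or library 1 of 3A with vehicle (0.60). LIG1 (ENSG00000105486, chromosome 19, 48115445 to 48170603, minus strand on hg38), the ligase that joins Okazaki fragments, had 21.2, 20.1 and 18.6 CPM in 3A, 10.5, 11.5 and 14.7 in WT and 13.04, 11.5 and 13.98 in EV with R1881. With vehicle, LIG1 had 15.8, 21.9 and 17.2 CPM in 3A, 8.65, 11.5 and 12.02 in WT and 13.4, 9.20 and 10.3 in EV. In both treatments the 3A libraries lay above all WT and EV libraries, which overlapped each other. LIG1 differed by 0.71 ± 0.17 (edgeR adjusted p = 0.0200) in 3A against WT with R1881 and by 0.77 ± 0.17 (edgeR adjusted p = 0.00783) with vehicle. WT against EV gave -0.07 ± 0.17 (edgeR adjusted p = 0.848) with R1881, with a 95% interval of -0.42 to 0.28. Of its calls, 3A against WT with R1881 was lost without library 1 of WT with R1881 (0.61), library 2 of WT with R1881 (0.66), library 1 of 3A with R1881 (0.66) or library 2 of 3A with R1881 (0.70). The call in 3A against EV with R1881 (0.64) was lost without library 1 of EV with R1881 (0.64), library 2 of EV with R1881 (0.55), library 1 of 3A with R1881 (0.59) or library 2 of 3A with R1881 (0.63). With vehicle both LIG1 calls were lost without library 2 of 3A with vehicle, at 0.60 against EV and 0.62 against WT. RPA1 and RPA3, subunits of the single-strand binding protein, were called in no comparison by edgeR or DESeq2, with 3A against EV estimates with vehicle of 0.20 and 0.10. RPA2 was called higher in 3A than in EV by 0.39 with vehicle and 0.37 with R1881, and these calls were lost without any 1 of 2 and any 1 of 4 libraries.

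Nucleotide supply genes were higher in 3A than in EV for 4 of 5 genes in each treatment, against 3.97% of all genes with vehicle and 4.39% with R1881. DUT was the exception, at 0.25 ± 0.13 (edgeR adjusted p = 0.264) with vehicle. RRM2, the regulated subunit of ribonucleotide reductase, had 105, 78.4 and 94.4 CPM in 3A, 71.2, 72.5 and 63.8 in WT and 50.6, 34.1 and 41.04 in EV with R1881. With vehicle, RRM2 had 66.4, 57.4 and 44.3 CPM in 3A, 31.02, 29.2 and 31.1 in WT and 26.3, 16.97 and 19.5 in EV. The 3 states stood apart in both treatments, and every state was higher with R1881 than with vehicle. RRM2 differed by 1.43 ± 0.17 (edgeR adjusted p = 6.64e-06) in 3A against EV with vehicle and by 0.88 ± 0.16 (edgeR adjusted p = 0.00190) in 3A against WT. In WT against EV with R1881 it differed by 0.72 ± 0.16 (edgeR adjusted p = 0.00807), which was lost without library 2 of EV with R1881 (0.58). RRM1, the large subunit, had 177, 155 and 159 CPM in 3A, 138, 136 and 123 in WT and 97.5, 77.1 and 85.4 in EV with R1881. With vehicle, RRM1 had 166, 154 and 110.1 CPM in 3A, 92.9, 99.4 and 91.5 in WT and 93.4, 78.6 and 75.8 in EV. The 3 states were apart with R1881, and WT and EV overlapped with vehicle. RRM1 differed by 0.92 ± 0.13 (edgeR adjusted p = 6.07e-05) in 3A against EV and 0.61 ± 0.13 (edgeR adjusted p = 0.00412) in WT against EV with R1881. TYMS, thymidylate synthase, had 31.4, 24.9 and 23.3 CPM in 3A, 21.3, 16.5 and 18.5 in WT and 13.4, 11.8 and 14.1 in EV with R1881. With vehicle, TYMS had 26.5, 27.1 and 22.6 CPM in 3A, 13.4, 13.3 and 12.1 in WT and 11.97, 8.04 and 10.3 in EV. The 3 states were apart in both treatments. TYMS differed by 1.33 ± 0.15 (edgeR adjusted p = 3.67e-06) in 3A against EV with vehicle, and its WT against EV call with R1881 (0.52) was lost without any 1 of 5 single libraries (values 0.42 to 0.57). TK1, thymidine kinase, was higher in 3A than in EV by 1.17 with vehicle and 0.97 with R1881. TYMS, RRM2 and DUT share 46.6%, 20.2% and 14.5% of their exon bases with other genes, for TYMS mostly with ENOSF1 on the opposite strand, and are uncertain.

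All 4 genes of chromatin copying were higher in 3A than in EV in both treatments, against 3.97% of all genes with vehicle and 4.39% with R1881. UHRF1, which reads hemimethylated DNA, had 43.6, 40.8 and 37.5 CPM in 3A, 32.5, 28.9 and 29.8 in WT and 19.4, 16.1 and 15.9 in EV with R1881. With vehicle, UHRF1 had 36.2, 35.4 and 30.64 CPM in 3A, 19.05, 15.98 and 13.6 in WT and 11.3, 13.3 and 14.3 in EV. With R1881 the 3 states were apart, and with vehicle WT and EV overlapped. UHRF1 differed by 1.39 ± 0.13 (edgeR adjusted p = 1.07e-06) in 3A against EV and 1.07 ± 0.13 (edgeR adjusted p = 3.62e-05) in 3A against WT with vehicle, and by 0.83 ± 0.13 (edgeR adjusted p = 0.000444) in WT against EV with R1881. DNMT1, the maintenance methyltransferase that UHRF1 recruits, had 146, 148 and 123 CPM in 3A, 136, 133 and 129 in WT and 113, 108 and 106 in EV with R1881. With vehicle, DNMT1 had 129.6, 151 and 143 CPM in 3A, 102, 106 and 80.9 in WT and 89.9, 94.6 and 88.9 in EV. 3A stood alone above WT and EV with vehicle, and 3A and WT overlapped above EV with R1881. DNMT1 differed by 0.63 ± 0.10 (edgeR adjusted p = 0.000202) in 3A against EV with vehicle, and its call with R1881 (0.35) was lost without any 1 of 5 single libraries (values 0.31 to 0.37). CHAF1A, the large subunit of the histone chaperone CAF-1, had 56.8, 45.1 and 50.4 CPM in 3A, 48.2, 41.1 and 49.9 in WT and 37.6, 32.7 and 34.1 in EV with R1881. With vehicle, CHAF1A had 50.3, 55.6 and 45.8 CPM in 3A, 36.6, 37.6 and 35.1 in WT and 28.6, 27.4 and 28.7 in EV. The 3 states were apart with vehicle, and 3A and WT overlapped above EV with R1881. CHAF1A differed by 0.84 ± 0.11 (edgeR adjusted p = 1.43e-05) in 3A against EV with vehicle. Its 3A against WT call with vehicle (0.47) was lost without library 2 of 3A with vehicle (0.40), and its WT against EV call with R1881 (0.41) without library 2 of EV with R1881 (0.36), library 3 of EV with R1881 (0.39), library 1 of WT with R1881 (0.39) or library 3 of WT with R1881 (0.35). CHAF1B, the middle subunit, was higher in 3A than in EV by 0.63 with vehicle and 0.63 with R1881.

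MCM8, a helicase of homologous recombination and not of the licensing ring, had 41.5, 34.9 and 29.8 CPM in 3A, 33.9, 28.3 and 27.7 in WT and 19.04, 15.2 and 15.7 in EV with R1881. With vehicle, MCM8 had 31.1, 24.4 and 24.3 CPM in 3A, 20.04, 14.8 and 12.6 in WT and 12.01, 9.98 and 9.71 in EV. It kept the order of the licensing genes, with 3A above WT with vehicle and both above EV. MCM8 differed by 1.34 ± 0.17 (edgeR adjusted p = 1.37e-05) in 3A against EV with vehicle and by 0.85 ± 0.16 (edgeR adjusted p = 0.00264) in WT against EV with R1881.

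R1881 was set against vehicle within each rescue state for the androgen response. In 3A cells 8 of the 55 genes were higher with R1881, against 12.4% of all genes, with a median of 0.16. In WT cells 40 were higher, against 11.0%, with a median of 0.55. In EV cells 20 were higher, against 13.2%, with a median of 0.30. The share in 3A, 8 of 55, is near the background, and by this fit none of the 55 was called lower in any state. In EV, GMNN was called lower by DESeq2 (-0.34, adjusted p = 0.0395) and by edgeR with the replicate number in the model (-0.35, edgeR adjusted p = 0.0268), and edgeR with upper quartile or RLE factors likewise called 1 of the 55 lower. With the replicate number, 27 of the 55 were called higher in EV, against 2770 of all genes called higher. The added genes were MCM4, MCM10, RFC4, POLA1, POLA2, TYMS and DNMT1. Calls in all 3 states were shared by 7 genes, and 19 genes were called in WT alone. The share of all genes with either pattern was not counted, and a call in WT alone is not a tested difference in response. The TMM scaling factors, 0.939 to 0.997 in the R1881 libraries against up to 1.07 in the vehicle libraries, which all lay above every R1881 library, moved with the treatment. With upper quartile factors in their place the counts were 5 in 3A, 35 in WT and 11 in EV. Single libraries weighed on these counts. In EV, 9 genes were called without library 1 of EV with R1881, 11 without library 3 of EV with R1881, 11 without library 2 of EV with vehicle and 13 without library 3 of EV with vehicle. In 3A, 3 genes were called without library 3 of 3A with vehicle and likewise without library 1 of 3A with R1881. Kept without any 1 library were 3 of the 8 calls in 3A, 30 of the 40 in WT and 8 of the 20 in EV.

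**Figure D4:**
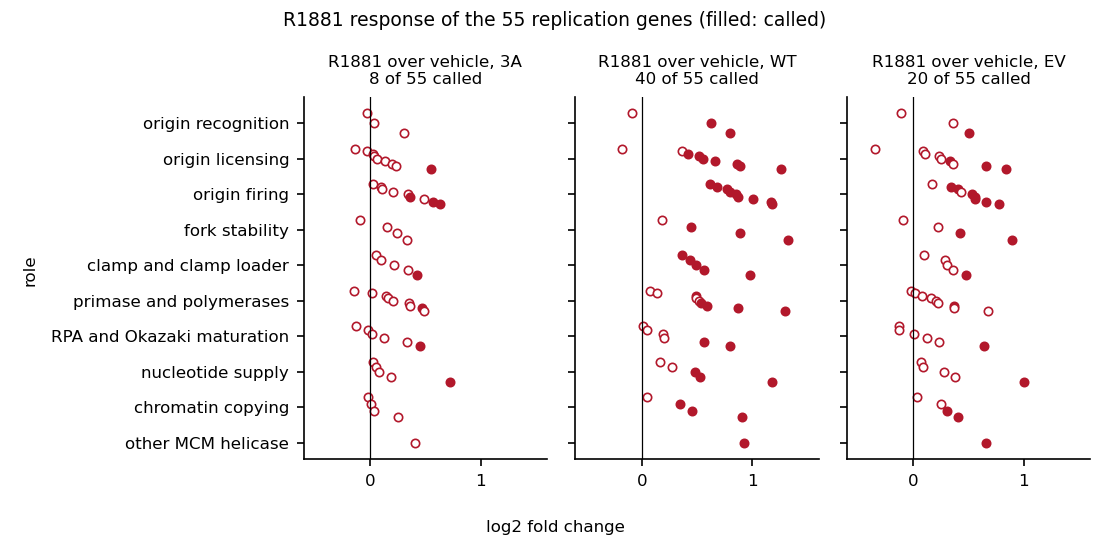
Log2 fold change with R1881 against vehicle for each of the 55 genes in 3A, WT and EV. Filled points are called by edgeR without a replicate term at an adjusted p under 0.05. The WT values lie highest (median 0.55, 40 called), with EV (median 0.30, 20 called) and 3A (median 0.16, 8 called) below.

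Of the 9 firing genes, 3 were called with R1881 in 3A, 9 in WT and 7 in EV. Of the 9 licensing genes, 1 was called in 3A, 7 in WT and 3 in EV, and of the 5 clamp and loader genes, 1 in 3A, 5 in WT and 1 in EV. Of all genes tested, 12.4% were called higher in 3A, 11.0% in WT and 13.2% in EV. The 1 of 9 licensing genes in 3A is near that share. CDC6 rose by 0.55 ± 0.14 (edgeR adjusted p = 0.00539) in 3A, 1.26 ± 0.15 (edgeR adjusted p = 1.08e-06) in WT and 0.84 ± 0.15 (edgeR adjusted p = 0.000179) in EV. RRM2 rose by 0.72 ± 0.16 (edgeR adjusted p = 0.00169) in 3A, 1.18 ± 0.16 (edgeR adjusted p = 1.32e-05) in WT and 1.005 ± 0.17 (edgeR adjusted p = 9.36e-05) in EV. FEN1 rose by 0.45 ± 0.13 (edgeR adjusted p = 0.0148) in 3A, 0.80 ± 0.13 (edgeR adjusted p = 0.000127) in WT and 0.64 ± 0.13 (edgeR adjusted p = 0.00114) in EV, and its 3A call was lost without library 3 of 3A with vehicle (0.35) or library 1 of 3A with R1881 (0.27). DBF4 rose by 0.57 ± 0.13 (edgeR adjusted p = 0.00236) in 3A, 0.77 ± 0.13 (edgeR adjusted p = 0.000207) in WT and 0.41 ± 0.14 (edgeR adjusted p = 0.0320) in EV, the last lost without any 1 of 4 libraries. CDC7, GINS3 and RFC3 were also called in all 3 states, and each lost its calls in 3A and in EV without single libraries. PRIM2 rose in WT by 1.29 ± 0.16 (edgeR adjusted p = 3.04e-06) and in 3A by 0.47 ± 0.16 (edgeR adjusted p = 0.0309), the second lost without library 3 of 3A with vehicle (0.32), library 1 of 3A with R1881 (0.44) or library 3 of 3A with R1881 (0.48), and gave 0.22 ± 0.16 (edgeR adjusted p = 0.353) in EV. In 3A, MCM3 gave 0.03 ± 0.10, TICRR 0.03 ± 0.18 and DNA2 0.02 ± 0.17, none of them called. In WT they rose by 0.67, 1.18 and 0.56, the last lost without any 1 of 4 libraries. CHAF1B gave 0.03 in 3A, 0.05 in WT and 0.03 in EV and was not called. Among the called EV responses, ORC6 (0.50) was lost without library 2 of EV with vehicle (0.44) or library 1 of EV with R1881 (0.42) and UHRF1 (0.40) without library 1 of EV with vehicle (0.33) or library 1 of EV with R1881 (0.32).

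Whether the R1881 response itself differed between rescue states was tested as an interaction. The response in 3A minus that in WT had a median of -0.35 over the 55 genes, and 0 were called by edgeR, against 0.0175% of all genes called lower. At an unadjusted p under 0.05, 25 of the 55 were lower, against 856 of the 17162 genes tested, and DESeq2 called 3, against 83 genes of all in either direction. The estimates with the smallest p were in MCM3 at -0.64 ± 0.14 (edgeR adjusted p = 0.123), TICRR at -1.15 ± 0.26 (edgeR adjusted p = 0.123), MCM4 at -0.75 ± 0.19 (edgeR adjusted p = 0.175), PRIM2 at -0.82 ± 0.22 (edgeR adjusted p = 0.232) and UHRF1 at -0.66 ± 0.18 (edgeR adjusted p = 0.232). The response in WT minus that in EV had a median of 0.27, with 0 called by edgeR against 0.0757% of all genes called higher, 13 higher before adjustment (p under 0.05) against 750 of the 17162 genes tested, and 1 called by DESeq2 against 54 of all genes called higher. That gene was PRIM2, at 1.07 ± 0.23 (edgeR adjusted p = 0.0608) with edgeR and an adjusted p of 0.00259 with DESeq2. The response in 3A minus that in EV had a median of -0.12, with 0 called by edgeR and by DESeq2, against 0.00583% of all genes called higher and 0.00583% lower, and 1 gene, GMNN, higher at an unadjusted p under 0.05. For 3A minus WT, edgeR called 6 of the 55 lower with the replicate number in the model, against 96 genes of all called in either direction. They include MCM3 (edgeR adjusted p = 0.0353), MCM4 (edgeR adjusted p = 0.0184) and TICRR (edgeR adjusted p = 0.0419). With no filter on low counts edgeR called 10 of the 55 lower, against 178 genes of all in either direction. Whether a single gene is called as differing in response between 3A and WT thus depends on the model and the filter.

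Genes of neighbouring processes were counted from further lists. Of 26 other replication genes, 6 were higher in 3A than in EV with vehicle and 11 with R1881, and 8 in WT than in EV with R1881. The shares of all genes called higher were 3.97% and 4.39% in 3A against EV with vehicle and with R1881. In WT against EV with R1881 the share was 4.66%. DSCC1, a subunit of the clamp loader variant used in cohesion, was higher in 3A than in EV by 0.99 ± 0.17 (edgeR adjusted p = 0.000426) with vehicle and 1.30 ± 0.17 (edgeR adjusted p = 3.44e-05) with R1881. TOPBP1, which works with treslin at origins, was higher by 0.66 ± 0.13 (edgeR adjusted p = 0.00175) with vehicle. The count of these genes in WT against EV with R1881 was 2 without library 2 of WT with R1881, and that in 3A against EV with R1881 was 5 without library 2 of EV with R1881. ORC5, another origin recognition subunit, rose with R1881 by 1.18 ± 0.11 (edgeR adjusted p = 2.69e-08) in 3A, 1.30 ± 0.11 (edgeR adjusted p = 8.77e-09) in WT and 0.82 ± 0.11 (edgeR adjusted p = 4.76e-06) in EV. Of 10 further nucleotide genes, 3 were higher in 3A than in EV with vehicle and 2 with R1881. Of 8 histone supply genes, 2 were higher with vehicle and 3 with R1881, led by the chaperone ASF1B at 1.38 and 1.07.

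Of 21 genes that control entry into S phase, 9 were higher in 3A than in EV with vehicle, and 10 were higher and 1 lower with R1881. Of all genes tested, 3.97% were called higher in 3A than in EV with vehicle and 4.39% with R1881. E2F1, an activator of replication genes, was higher in 3A than in EV by 1.41 ± 0.15 (edgeR adjusted p = 2.21e-06) with vehicle and 0.87 ± 0.14 (edgeR adjusted p = 0.000450) with R1881. E2F8, a repressor of the same family, was higher by 1.94 ± 0.26 (edgeR adjusted p = 3.90e-05) with vehicle and 1.501 ± 0.25 (edgeR adjusted p = 0.000500) with R1881. CDK2, the kinase of S phase, was higher by 0.86 ± 0.10 (edgeR adjusted p = 4.84e-06) with vehicle and 0.66 ± 0.10 (edgeR adjusted p = 0.000126) with R1881. CDK6 rose with R1881 by 1.97 ± 0.28 (edgeR adjusted p = 1.41e-05) in 3A, 1.94 ± 0.28 (edgeR adjusted p = 2.46e-05) in WT and 1.61 ± 0.28 (edgeR adjusted p = 0.000167) in EV. The gene called lower in 3A than in EV with R1881 was CDKN1B, the kinase inhibitor p27, at -0.31 ± 0.09 (edgeR adjusted p = 0.0373), against 4.06% of all genes called lower; it is named outside the rule for genes because the count is small. Its call was lost without any 1 of 4 single libraries (values -0.30 to -0.26). All 16 genes of G2 and mitosis were higher in 3A than in EV in both treatments, 14 in 3A than in WT with vehicle and 8 with R1881, the last count being 2 without library 2 of WT with R1881. In 3A against WT, 2.64% of all genes were called higher with vehicle and 1.41% with R1881. CENPF, a kinetochore protein, was higher in 3A than in WT with R1881 by 0.68 ± 0.13 (edgeR adjusted p = 0.00451), and TOP2A, topoisomerase II alpha, by 0.69 ± 0.14 (edgeR adjusted p = 0.00629). With R1881 against vehicle in 3A, KIF11 had the smallest p of the list and was not called, at 0.32 ± 0.12 (edgeR adjusted p = 0.0564).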

How the data were processed

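RNA of LNCaP cells was sequenced in 18 libraries, grouped from the sample titles into 6 groups of 3. The 55 genes, their roles and the further lists were chosen with earlier results of these data known. The authors deposited whole read counts per gene for 58735 Ensembl genes, and FPKM values per gene for the same libraries. Libraries were paired-end, made with a NEBNext Ultra II kit and read on a NovaSeq 6000, per the labels' protocols. The submitters' processing notes name the build hg38, HISAT2 2.0.5 and featureCounts 1.5.0-p3. No source used here gives the strand setting or says how reads of several genes were handled, so genes with large overlaps are marked as uncertain. The deposited FPKM values equal the count divided by gene length and a library factor, within 0.1% for 407062 of 407062 values, and serve for levels between genes alone. All 55 genes have the start and end of GENCODE 29.

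The deposited counts went into edgeR 4.0.16 under R 4.3.3. Of the genes, 17162 passed filterByExpr (minimum count 10, minimum total 15). TMM factors scaled the libraries, and 1 quasi-likelihood fit over the 6 groups used every library, leaving 12 residual degrees of freedom at a common dispersion of 0.0186. The 12 comparisons were the 3 pairs of rescue states under either treatment, the R1881 response (R1881 against vehicle) of every state and the 3 differences of those responses, two-sided, with Benjamini-Hochberg adjustment over all 17162 genes. Standard errors come from the F statistic, and intervals are at 95%. Counts of libraries of the same group differed beyond sampling noise (chi-square over its degrees of freedom between 9.26 and 54.2), so none was merged with another.

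Values in every library are given for up to 3 genes per role with the smallest p over the 6 groups. Genes of other lists are among the 4 with the smallest p of their list in a comparison. Exceptions are named as chosen after their values were seen. Replicate numbers stand in the titles with no word on what they mark. Between the groups of 2 comparisons all 3 same-number pairs deviated together over the 17162 genes (r 0.163 to 0.198 for EV with R1881 and EV with vehicle, and 0.105 to 0.154 for 3A and EV with R1881). The numbers were therefore read as pairs there. In the other comparisons of 2 groups not every same-number pair had r over 0.1, and the numbers were not read as pairs. With the replicate number as a block the calls were 28 in place of 20 (R1881 in EV) and 49 in place of 46 (3A against EV with R1881). Unless stated otherwise, the values and figures of these 2 comparisons come from the fit without the block. Alternatives were other scaling factors, DESeq2 1.42.0, other filters, the compared groups alone, a replicate block and each library left out. An adjustment for GC content together with length, with and without the block, was added after seeing the data. Promoter windows are those of RefSeq, and sequences on chromosome 8 were not used here.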

Additional observations from a re-analysis of the deposited data

How the results depend on the processing

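No called change of the 55 genes reversed in any alternative. Of 3480 alternatives to 232 called gene changes, 3226 kept the call and 254 lost it, and of 198 alternatives to the counts 156 stayed within 1.5 times. The cause of the shifts was not tested. The counts of 45 and 46 in 3A against EV, 37 in 3A against WT with vehicle and 40 for R1881 in WT stayed within 1.5 times in every alternative run. In WT against EV with vehicle, 0 became 4 with DESeq2, 8 with no filter on low counts and 2 with the GC and length correction, and 0 to 2 without 1 library. In WT against EV with R1881, leaving out 1 library gave 19 to 32. In 3A against WT with R1881, 1 became 7 with DESeq2, 4 with no filter, 3 with a filter of 1 CPM in 3 libraries, 3 with the compared groups alone, 5 with the GC and length correction, and 0 to 1 without 1 library. For R1881 in EV, 20 became 11 with upper quartile factors and 9 to 23 without 1 library, and for R1881 in 3A, 8 became 5 with upper quartile factors and 3 to 10 without 1 library. For the R1881 response of WT minus EV, 0 became 1 with upper quartile factors, with DESeq2, with no filter, with the 1 CPM filter and with the GC and length correction, and 0 to 1 without 1 library. For that of 3A minus WT, 0 became 3 with DESeq2, 10 with no filter and 0 to 1 without 1 library. With the replicate block the counts became 6 in WT against EV with vehicle, 9 in 3A against WT with R1881, 1 in the response of WT minus EV and 6 in that of 3A minus WT. Whether the numbers pair the libraries of all these groups is not known from the labels. With the block and the GC and length correction together they became 9 in WT against EV with vehicle, 15 in 3A against WT with R1881, 32 for R1881 in EV, 17 for R1881 in 3A, 2 in the response of WT minus EV and 10 in that of 3A minus WT. Over all groups, 26 of 45 same-number pairs of libraries had r over 0.1, against 6 of 90 other pairs. For 15 of the 18 libraries the best correlate in another group had the same number. With 3 libraries a group, a change that was not called is not shown to be absent.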
